A study of Mus musculus with 2 samples.

Results

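Major histocompatibility complex (MHC) class I molecules carry peptides from inside the cell to its surface, where CD8+ T cells read them. The 10 genes described here encode the parts of this display and its supply: the classical heavy chains H2-K1 and H2-D1, the non-classical heavy chains H2-Q4, H2-Q7 and H2-T23, the shared light chain B2m, the peptide transporter subunits Tap1 and Tap2, the loading factor tapasin (Tapbp) and the transcriptional activator Nlrc5. They were chosen as a list, and all 10 of them were among the 24071 genes listed over both libraries. In spinal cord CD133+ cells they were highest in endothelial cells. As counted, mural cells lay between endothelial and ependymal cells for most genes. Mural and ependymal intervals overlapped for H2-Q4, H2-Q7 and Tap1, however, and mural cells held the lowest counted levels of Tapbp and Nlrc5. Within the endothelium the genes differed in pattern. The heavy chain H2-Q7 was several times higher in arterial and venous than in capillary cells. The transporter gene Tap1 was correlated with the interferon markers over sub-clusters and was highest in a small sub-cluster led by Cxcl9.

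The cells came from spinal cords of adult C57BL/6j mice, 10 to 12 weeks old, of the genotype Clec9acre/creR26LSLtdTomato/LSLtdTomato. Cre was expressed from Clec9a, the gene of the dendritic cell receptor DNGR-1, and switched on a tdTomato reporter in cells that expressed Clec9a at that time or earlier, and in their descendants. Live CD45- CD133+ cells were sorted into a CD133+ non-traced library of 25411 cells (median 7218 unique molecular identifiers, or UMIs, per cell) and a CD133+ DNGR-1 traced library of 4825 cells (median 8566 UMIs). Both libraries share the genotype, which the paper describes as Clec9a-deficient, so neither is a wild-type control. The number of mice behind each was not given in the sources used here. Each group is 1 library, so the data allow no test between them, and single cells do not stand in for animals. All values are UMIs summed over the cells of a group and given as CPM, the UMIs of a gene scaled to a common total per group, with exact Poisson intervals at 95% that cover counting error only. They describe these 2 libraries, not the conditions.

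Cells were grouped without using the 10 genes. The non-traced library gave 9157 capillary, 1368 arterial and 739 venous endothelial-like cells, 594 interferon-responding endothelial-like cells, 156 mural cells and 1161 ependymal-like cells, beside 8004 endothelial-like cells of no clear segment. The traced library gave 4764 ependymal-like and 51 endothelial-like cells. The groups were named from the marker lists that follow, so these sums describe the groups and are no check of the labels. The 8 arterial markers summed to 5700 CPM in arterial and 159.3 CPM in capillary cells, the 9 venous markers to 3378 CPM in venous and 516.7 CPM in capillary cells, and the 12 interferon markers to 4789 CPM in interferon-responding and 1402 CPM in capillary cells. The 7 pericyte markers summed to 34070 CPM in mural cells. Stress or immune genes were among those leading several of these clusters. These were Saa1 in mural cells, Ifit3 and Cxcl9 in the interferon sub-clusters and Atf3, Socs3 and Egr1 in a traced ependymal cluster. In a venous sub-cluster they included Cd14, Ptgs2 and Cxcl11, and the venous marker list itself holds Vcam1, Icam1, Il1r1 and Lcn2. Names were given anew to clusters built here, which can make values depart from those of the study. The libraries shared 42 cell barcodes.

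In the class I pathway, proteasomes cut proteins into peptides, the TAP1 and TAP2 proteins pump these into the endoplasmic reticulum, and tapasin holds an empty heavy chain beside the transporter until a peptide fits. The heavy chain must pair with β2-microglobulin to reach the surface. Transcription of these genes is raised by interferons and by NLRC5, which acts at a shared promoter module made of the S, X and Y boxes. Brain and spinal cord parenchyma is known for low class I levels, and vascular endothelium for high ones.

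Of the 10 genes, 8 lie on mouse chromosome 17 within positions 33915899 to 36032855 (GENCODE vM21, GRCm38), most of them in the H2 complex proper. H2-K1 is at chr17:33996017-34000347 on the minus strand, H2-D1 at chr17:35262730-35267499, H2-Q7 at chr17:35439155-35443773, Tap1 at chr17:34187553-34197225 and Tap2 at chr17:34203527-34216321, the last 4 on the plus strand. B2m stands apart on chromosome 2 (chr2:122147686-122153083, plus strand), as does Nlrc5 on chromosome 8 (chr8:94434356-94527272, plus strand). All 10 are annotated as protein-coding. The heavy chain genes are close copies of each other, and reads that fit several copies may have been dropped or split by the authors' counting, so the values of H2-K1, H2-D1, H2-Q4 and H2-Q7 carry that uncertainty. Tapbp overlaps an antisense gene and Zbtb22.

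RefSeq promoter windows (GRCm38.p6, 250 bases before the transcription start) were matched by symbol for 8 of the 10 genes, all but Tap2 and Nlrc5. The 150 bases before the start are shown for H2-K1 and H2-Q7, whose levels were correlated over endothelial sub-clusters, and for B2m, the partner of every heavy chain. Capitals mark TGACG, the core of the X2 box, CCAAT, the core of the Y box, and the interferon-responsive spacing GAAANNGAAA, each searched on both strands. The windows are chr17:34000348-34000497 (minus strand), chr17:35439005-35439154 (plus strand) and chr2:122147537-122147686 (plus strand).
H2-K1: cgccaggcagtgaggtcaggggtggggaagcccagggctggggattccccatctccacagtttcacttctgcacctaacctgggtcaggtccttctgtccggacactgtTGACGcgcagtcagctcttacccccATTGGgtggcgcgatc
H2-Q7: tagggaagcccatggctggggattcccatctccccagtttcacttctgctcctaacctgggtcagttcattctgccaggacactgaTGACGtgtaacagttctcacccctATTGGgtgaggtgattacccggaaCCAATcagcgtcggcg
B2m: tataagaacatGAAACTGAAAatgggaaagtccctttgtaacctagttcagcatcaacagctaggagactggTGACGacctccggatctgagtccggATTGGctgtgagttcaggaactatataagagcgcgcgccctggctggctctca

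The TGACG core, on either strand, was found in 6 of the 8 windows, against 17.8% of all 32851 promoter windows of the same length. In H2-K1, H2-D1, H2-Q7 and B2m a Y box core on either strand began 24 or 25 bases after it. Such a pair 20 to 30 bases apart, a spacing chosen after these matches were seen, stood in 0.691% of all windows, and the Y box core alone in 33.8%. The interferon-responsive spacing stood in 2.98% of all windows and in 2 of the 8, H2-T23 (124 bases before the start) and B2m (139 bases before it). The motifs do not overlap each other in the windows shown. These matches describe letters, not bound sites, and a link of the letters to the levels was not tested. Only the exact letters were searched, so a window without a match, such as that of H2-K1 or H2-Q7, may hold other forms of an interferon-responsive sequence.

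The classical heavy chains were high in every endothelial group. H2-K1 was at 759.3 CPM in capillary (interval 753.2 to 765.5), 1188 in arterial (1169 to 1207), 1272 in venous (1251 to 1293) and 859.2 in interferon-responding cells (832.5 to 886.5). It was at 228.6 CPM in mural cells, 103.3 in non-traced and 50.84 in traced ependymal cells, and 786.4 in the traced endothelial cells. Venous cells were highest and traced ependymal cells lowest, and of the neighbours in this order, only the traced endothelial cells overlapped in their intervals with the interferon-responding and capillary cells.

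H2-D1 was at 1421 CPM in capillary, 2393 in arterial, 1818 in venous and 1670 in interferon-responding cells. Mural cells held 556.8 CPM, non-traced ependymal cells 98.88, traced ependymal cells 53.37 and traced endothelial cells 1702. Here arterial rather than venous cells were highest. The neighbours with overlapping intervals were again the traced endothelial cells with the venous and with the interferon-responding cells.

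The balance between these 2 paralogues therefore differed between cell groups. H2-K1 made up 34.8% of their summed UMIs in capillary (interval 34.6 to 35.1), 33.2% in arterial (32.8 to 33.6) and 41.2% in venous cells (40.6 to 41.7). Both venous sub-clusters had it, at 40.6% in the one led by Gm5127 and Vcam1 and 42.6% in the one led by Lrg1 and Ackr1. In ependymal cells the share was 51.1% (48.7 to 53.5) in the non-traced and 48.8% (47.4 to 50.2) in the traced library, and in mural cells 29.1% (25.2 to 33.3). Over 28 endothelial sub-clusters the share ran from 30.9% in the arterial sub-cluster led by Fabp4 and Pi16 to 42.6% in the venous one led by Lrg1. It tracked the summed venous markers over these sub-clusters (Pearson r = 0.899), and the capillary markers hardly (r = 0.0833). The sub-clusters are cells of 1 library, ordered by genes measured in the same cells, and the share also had r = 0.402 with their median UMIs.

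**Figure D1:**
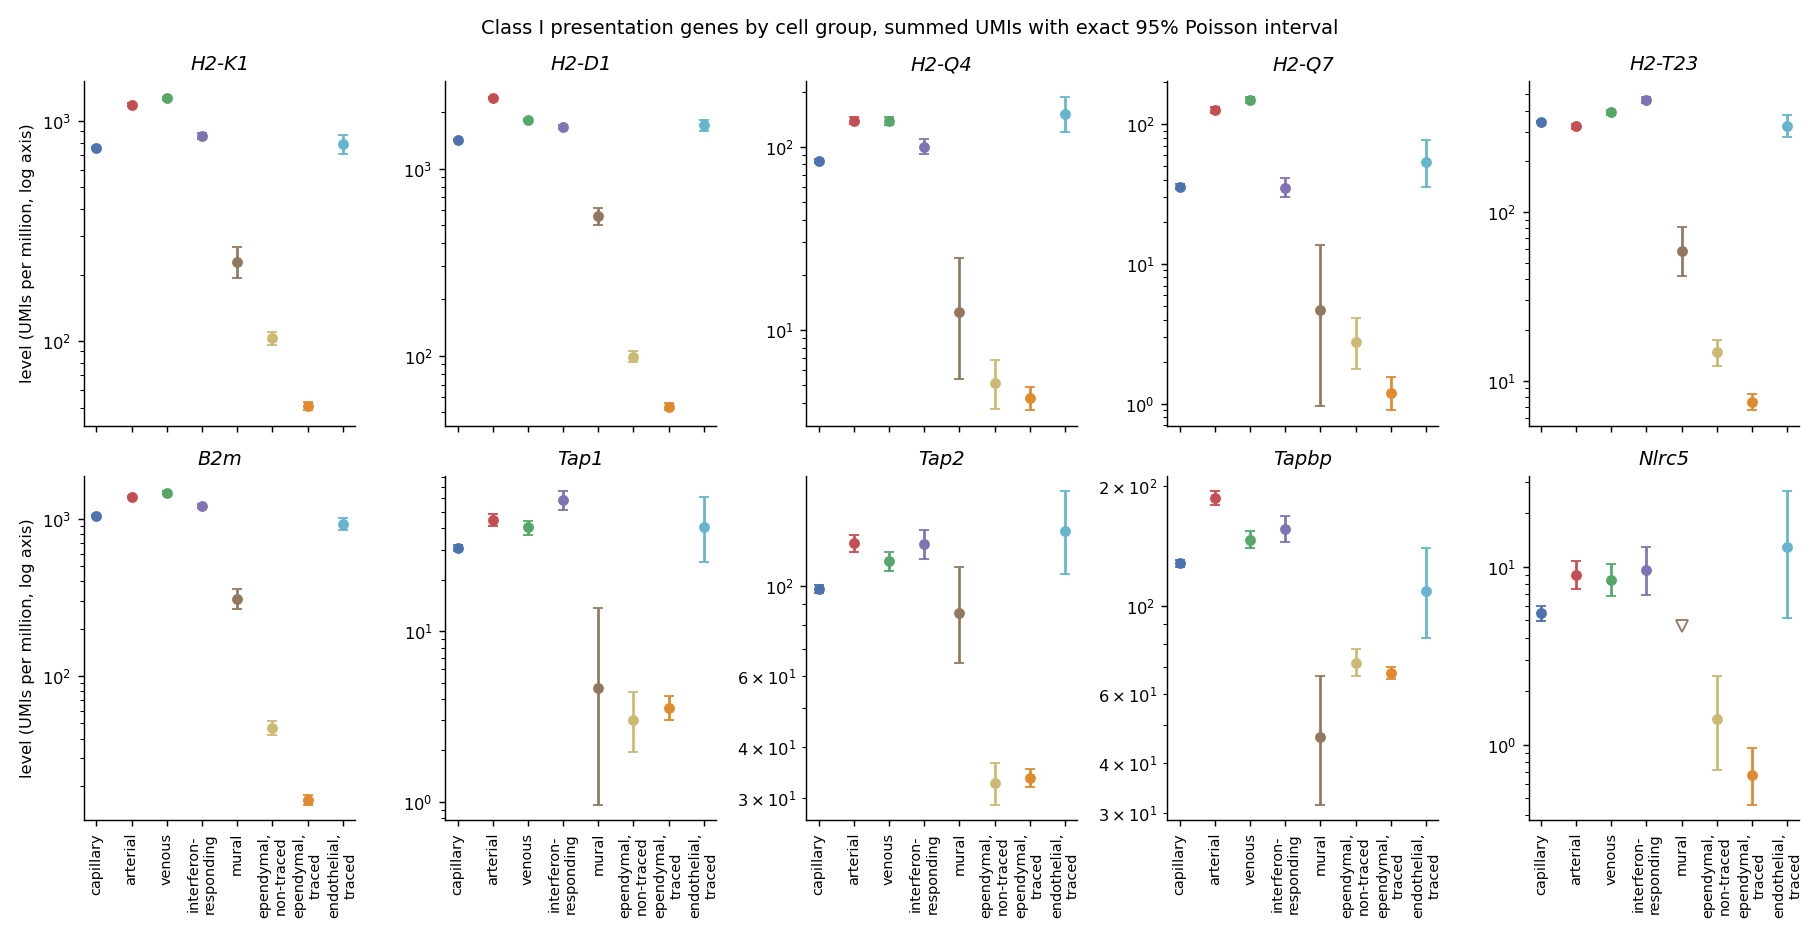
Levels of the 10 genes (CPM, log axis) in 8 cell groups, from UMIs summed over the cells of a group with exact 95% Poisson intervals. The open triangle for Nlrc5 in mural cells marks the level of 3 counts, since no UMI was found. Endothelial groups stand highest in each panel, with ependymal cells lowest for 8 of the 10 genes and mural cells lowest for Tapbp.

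Among the non-classical heavy chains, H2-Q7 differed most between segments. It was at 35.81 CPM in capillary (34.49 to 37.16), 127.2 in arterial (121.2 to 133.4) and 149.9 in venous cells (142.7 to 157.3). Interferon-responding cells were at 35.2 CPM, with an interval (29.97 to 41.07) that overlapped that of capillary cells. H2-Q7 was the 1 member 2-fold or more higher in arterial than in capillary cells, with a difference of 1.80 in log2(CPM + 1), and also the 1 such member in venous cells, with 2.04. Among all genes, 8.59% passed 2-fold in either direction in the arterial and 2.96% in the venous comparison.

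The span of H2-Q7 was wider still by sub-cluster. Its lowest value was 27.09 CPM in a capillary sub-cluster led by Apln and Kit, and its highest 296.3 CPM (275.2 to 318.6) in the venous sub-cluster led by Lrg1 and Ackr1, a 10.9-fold range. The other venous sub-cluster was at 107.1 CPM, and the arterial sub-clusters at 73.57 (led by Fabp4), 115.5 (led by Gkn3) and 164.3 CPM (led by Cytl1). For the other 9 genes the ratio of highest to lowest sub-cluster ran from 1.87 for H2-D1 to 6.46 for Nlrc5. H2-Q7 and H2-K1 had the highest correlation of any 2 members over the 28 sub-clusters (r = 0.96).

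H2-Q6, a neighbouring and nearly identical gene outside the 10, went the same way, at 11.84 CPM in capillary, 63.09 in arterial and 67.82 in venous cells. Reads that fit both copies cannot be told apart, so these rows are not independent of each other. In the arterial cells the leukocyte marker Laptm5 was at 94.64 CPM against 0.615 CPM in capillary cells, and the 6 leukocyte markers summed to 95.55 against 2.34 CPM, while Ptprc, the gene of CD45, and Cd3e had 0 UMIs. The 6 neuron markers summed to 906.8 against 37.26 CPM, of which Stmn2 made up 899.7 CPM, and the 6 smooth muscle markers to 193.2 against 30.15 CPM. The part of these markers' cell types in the arterial levels was not tested.

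H2-Q4 was at 83.22 CPM in capillary, 138.5 in arterial, 137.7 in venous and 100.1 in interferon-responding cells, so that arterial and venous cells did not differ beyond their intervals. Mural cells held 8 UMIs of H2-Q4 (12.44 CPM, 5.37 to 24.5), and ependymal cells 5.09 CPM in the non-traced and 4.23 CPM in the traced library. H2-T23, which encodes Qa-1, the ligand of the NKG2A receptor of natural killer cells, followed another order. It was highest in interferon-responding cells, at 462.8 CPM (443.3 to 483), then 389.3 in venous, 340.6 in capillary and 322.1 in arterial cells. H2-T23 was the 1 member lower in arterial than in capillary cells, by −0.08 in log2(CPM + 1), and its lowest endothelial sub-cluster was the arterial one led by Fabp4, at 252.2 CPM. Its level over sub-clusters had the weakest tie to H2-Q7 of any 2 members (r = 0.233).

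The light chain B2m was at 1052 CPM in capillary, 1374 in arterial, 1474 in venous and 1206 in interferon-responding cells, and no 2 neighbours in its order over the 8 groups overlapped. The traced endothelial cells were at 930 CPM, mural cells at 309.5, non-traced ependymal cells at 46.78 and traced ependymal cells at 16.31. UMIs of the 5 heavy chains stood to those of B2m as 2.51 in capillary, 3.03 in arterial and 2.56 in venous cells, but as 4.804 in non-traced and 7.182 in traced ependymal cells. B2m and H2-T23 were the members furthest below their capillary levels in non-traced ependymal cells, and B2m in traced ones.

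Tap1 and Tap2, which pair to form the transporter, differed in how far their levels spread. Tap1 was at 30.88 CPM in capillary, 45 in arterial, 40.53 in venous and 58.37 in interferon-responding cells, against 4.67 in mural and 3.01 and 3.55 in non-traced and traced ependymal cells. Tap2 was at 98.43 CPM in capillary, 127.5 in arterial, 115 in venous and 126.6 in interferon-responding cells. Mural cells kept 85.55 CPM of Tap2 (64.45 to 111.4), which overlapped the capillary level, and ependymal cells 32.54 CPM (non-traced) and 33.62 CPM (traced).

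Tapbp was at 127.9 CPM in capillary, 186.7 in arterial, 146.9 in venous, 156.1 in interferon-responding and 46.66 in mural cells. Ependymal cells had 71.9 CPM in the non-traced and 67.55 CPM in the traced library, so that Tapbp was the member nearest to its capillary level there. Nlrc5 was scarce, at 5.47 CPM in capillary, 9.05 in arterial, 8.46 in venous and 9.62 in interferon-responding cells. It had 0 UMIs in mural cells, where 3 UMIs would have been 4.67 CPM, and 12 UMIs in non-traced ependymal cells (1.39 CPM). At this depth its order among the arterial, venous and interferon-responding cells could not be resolved.

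**Figure D2:**
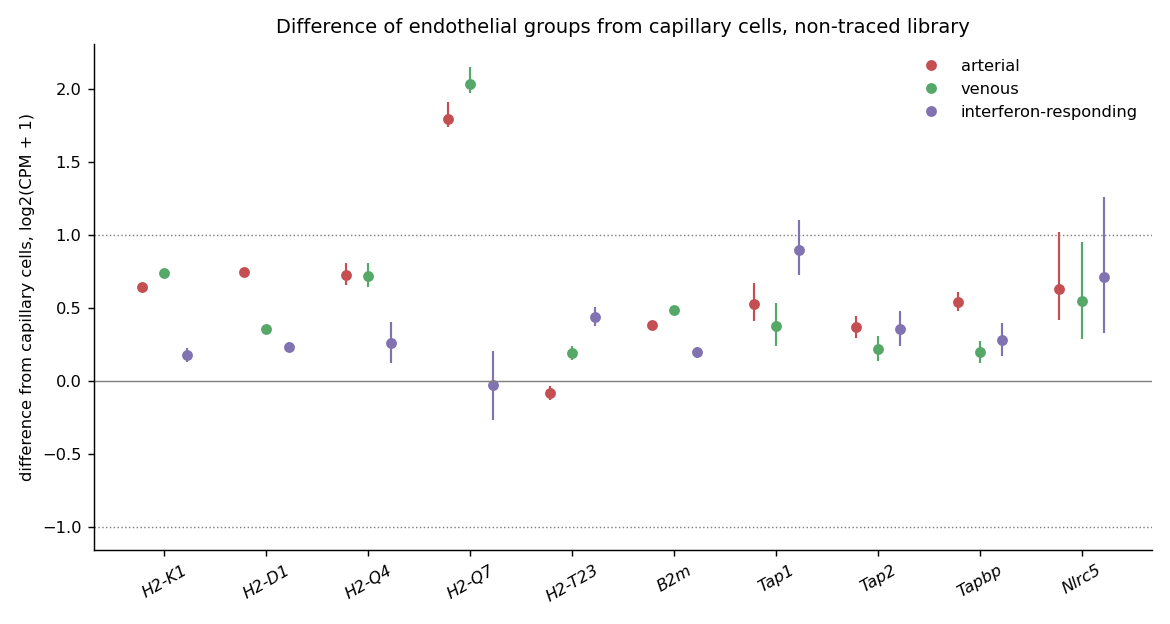
Difference from capillary cells in log2(CPM + 1) for arterial, venous and interferon-responding cells of the non-traced library (points), with the exact 95% interval of the log2 ratio without pseudocount (lines, counting error only). Dotted lines mark 2-fold, and the points of H2-Q7 in arterial and venous cells alone lie beyond them.

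Read together, 9 of the 10 genes were higher in arterial than in capillary cells, with a median difference of 0.59 in log2(CPM + 1) where the median of all genes was 0.03. All 10 were higher in venous cells, with a median of 0.43 against −0.01 for all genes. The 12 interferon markers summed to 2002 CPM in arterial, 1540 in venous and 1402 in capillary cells, and their part in these differences was not tested. Depth differed between these groups, with a median of 6717 UMIs per capillary, 8096 per arterial and 13514 per venous cell, and over the 28 sub-clusters the correlation of members with log2 median UMIs lay between −0.353 for H2-T23 and 0.39 for B2m. In the venous sub-cluster led by Lrg1, 3 members passed 2-fold, which were H2-K1 (1633 CPM), H2-Q4 (180.9 CPM) and H2-Q7, where 6.76% of all genes did. Cd14, Selp, Ptgs2, Cxcl11 and Lcn2 were also among the genes leading that sub-cluster. The 5 erythroid markers summed to 441.8 CPM in it and 28.53 CPM in capillary cells. The part of either in its levels was not tested.

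Interferon induces class I genes in many cell types, and the interferon-responding cells give the comparison that bears on it. None of the 10 genes passed 2-fold against capillary cells there, where 0.555% of all genes did. Even so, 9 of 10 were higher, with a median difference of 0.27 against −0.04 for all genes. Tap1 came nearest, with 0.90 (interval of the log2 ratio 0.73 to 1.10), then Nlrc5 with 0.71 (0.33 to 1.26) and H2-T23 with 0.44 (0.38 to 0.51). H2-K1, H2-D1 and B2m differed by 0.18, 0.23 and 0.20.

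The 2 sub-clusters of this group were unlike. In the 454 cells led by Ifit3, Gdf15 and Oasl1, Tap1 was at 45.58 CPM, H2-T23 at 434.6 and H2-Q7 at 30.03. In the 140 cells led by the chemokine genes Cxcl9 and Cxcl10, Tap1 was at 114.9 CPM (93.14 to 140.1), H2-T23 at 587.3 (536.8 to 641.4) and H2-Q7 at 58.02 (42.92 to 76.71). Tap2 reached 177.6 CPM and Nlrc5 13.03 CPM (11 UMIs) in the Cxcl9-led cells, the highest of any endothelial sub-cluster for each, as they were for Tap1 and H2-T23. In the Cxcl9-led cells 2 members passed 2-fold against capillary cells, Tap1 and Nlrc5, where 4.18% of all genes did, and Nlrc5 reached the floor of 10 CPM only through these cells. Beside Cxcl9 and Cxcl10, the genes leading these cells included Mx1, Ifit2, Oasl1, Ifit3 and Rsad2. The 12 interferon markers summed to 10030 CPM in them and to 3604 CPM in the Ifit3-led cells. Which interferon lay behind either sub-cluster was not tested. A sub-cluster of 846 cells with no segment, led by Igfbp3 and Zbp1, fell just short of the interferon name, with a mean log2 difference of 0.99. Its interferon markers summed to 3385 CPM and its arterial markers to 1614 CPM. Tap1 was at 57.24, H2-T23 at 459.8, H2-K1 at 1211 and H2-Q7 at 91.58 CPM there, each above the Ifit3-led cells.

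Over the 28 endothelial sub-clusters the summed interferon markers had r = 0.91 with Tap1, 0.806 with Tap2, 0.727 with Nlrc5 and 0.619 with H2-T23, but 0.194 with H2-Q7 and 0.295 with H2-K1. The capillary markers, in contrast, had r = −0.794 with H2-D1, −0.713 with H2-Q7 and −0.623 with H2-K1. The Cxcl9-led sub-cluster stands far from the others on the interferon axis, and correlations without it were not computed. Tap1 was at 45.58 CPM in the Ifit3-led sub-cluster, whose interferon markers summed to 3604 CPM. In the venous sub-cluster led by Lrg1 it was at 53.65 CPM, with interferon markers at 1734 CPM. All 45 pairs of members were positively correlated, from 0.233 to 0.96 with a median of 0.671. The sub-clusters share a library, and these correlations are descriptions.

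**Figure D3:**
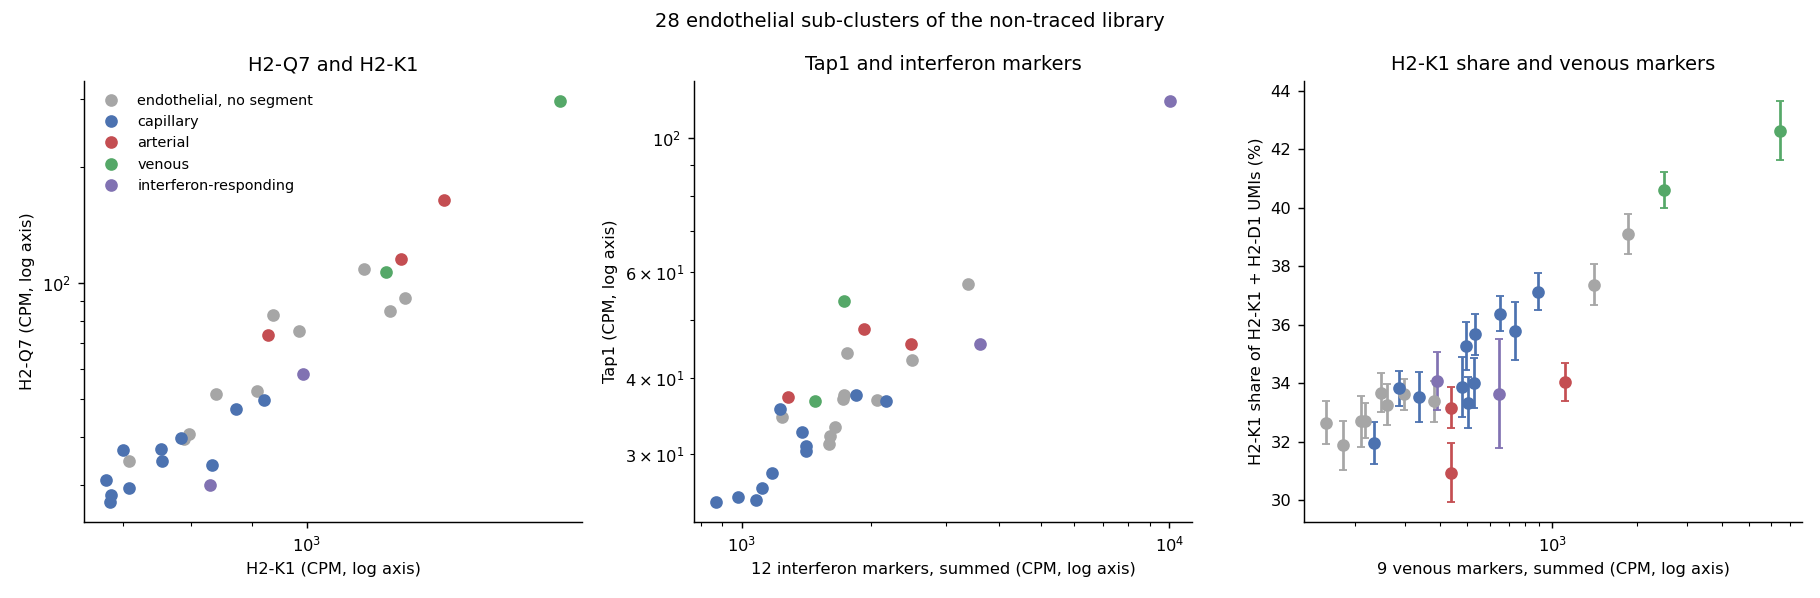
Each point is 1 of 28 endothelial sub-clusters of the non-traced library, coloured by segment: H2-Q7 against H2-K1 (CPM, log axes), Tap1 against the sum of 12 interferon markers (CPM, log axes), and the H2-K1 share of H2-K1 and H2-D1 UMIs with exact 95% interval against the sum of 9 venous markers (CPM, log axis). The venous sub-cluster led by Lrg1 stands highest in the left and right panels, at 296.3 CPM of H2-Q7 and a share of 42.6%, and the Cxcl9-led sub-cluster highest in the middle one, at 114.9 CPM of Tap1.

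Single cells were compared by their interferon markers too. All 19862 non-traced endothelial cells were thinned to 1000 UMIs and binned by their UMIs of the 12 interferon markers. Mean Tap1 UMIs per cell were 0.0304 (0.0262 to 0.0349) in the 6425 cells with 0 marker UMIs and 0.0819 (0.0567 to 0.115) in the 415 cells with 8 or more. Mean Tap2 went from 0.0981 to 0.202, H2-T23 from 0.342 to 0.489, H2-Q7 from 0.0542 to 0.0819, H2-K1 from 0.835 to 1.096, H2-D1 from 1.59 to 2.058 and B2m from 1.103 to 1.373. Nlrc5 went from 0.00389 to 0.0169 on 7 UMIs in the top bin. The steps of Tap1, Tap2 and Nlrc5 were thus wider than those of the classical heavy chains and B2m, and H2-Q7, which had little tie to these markers over sub-clusters, stepped about as far as H2-T23. The bins mix segments, and within capillary cells alone, of which 70 had 8 or more marker UMIs, B2m went from 1.007 (0.974 to 1.041) to 1.414 (1.149 to 1.722) and H2-K1 from 0.727 (0.699 to 0.756) to 1.057 (0.83 to 1.327). H2-T23 went from 0.333 (0.314 to 0.352) to 0.357 (0.231 to 0.527) there, with overlapping intervals, so that the order of the steps was not that of all endothelial cells. Tap1 in those 70 cells rested on 3 UMIs, too few to place. At this thinned depth 96.8% of traced, 93.6% of non-traced ependymal and 38.3% of capillary cells had 0 marker UMIs, which does not show that a cell lacks these transcripts.

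**Figure D4:**
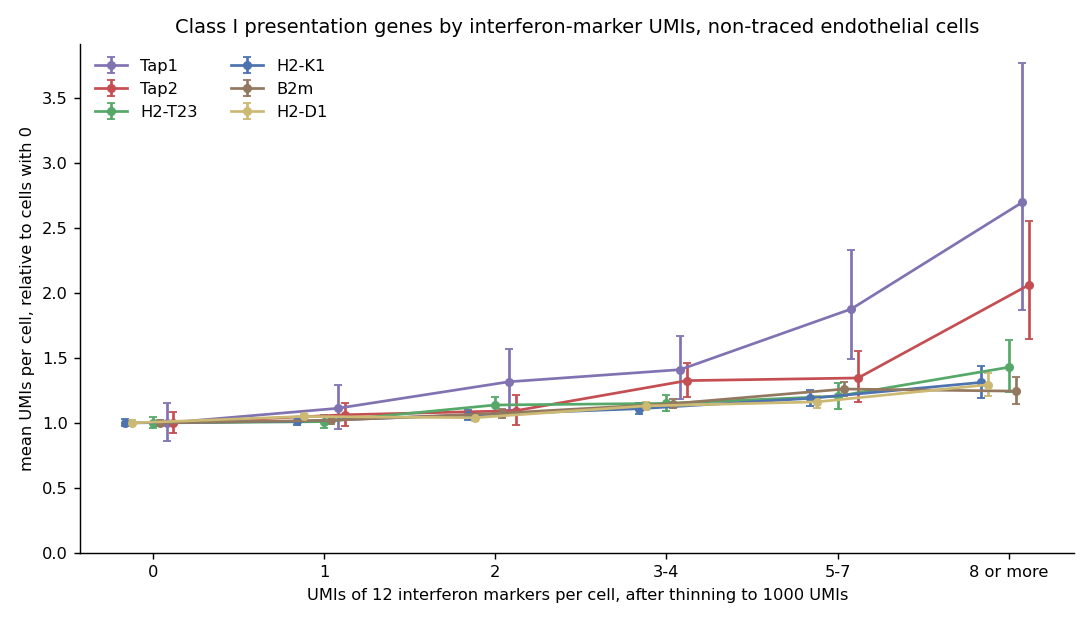
Mean UMIs per cell of 6 members in non-traced endothelial cells, thinned to 1000 UMIs, by the UMIs of 12 interferon markers in the same cell, relative to cells with 0 marker UMIs; bars are exact 95% Poisson intervals of each bin and leave out the error of the reference bin. Tap1 and Tap2 climb furthest in the cells with 8 or more marker UMIs, from 0.0304 to 0.0819 and from 0.0981 to 0.202 UMIs per cell.

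The 156 mural cells, which carried pericyte markers, were compared with capillary endothelium, since pericytes sit on the outer side of the capillary wall. A sub-cluster of 207 cells led by the smooth muscle genes Tagln and Acta2 was left unnamed and is not among them. Of the 10 genes, 8 were 2-fold or more lower in the 156 mural cells, against 30.4% of all genes that passed in either direction. The median difference was −2.13, and 0.04 over all genes. Among these 8, H2-Q4, H2-T23, H2-Q7 and Tap1 were furthest down, with differences of −2.65, −2.51, −2.70 and −2.49. Of these, H2-Q7 and Tap1 rest on 3 UMIs each and reached the floor of 10 CPM only through capillary cells. H2-D1 was nearest to its capillary level of the 8, at −1.35, and Tap2, at −0.20 (interval of the log2 ratio −0.61 to 0.18), was not lower beyond counting error. Mural cells were shallow, with a median of 4080 UMIs per cell.

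Endothelial RNA moved with these values. The 8 endothelial markers stood in mural cells at a median of 14.2% of their capillary level (range 9.80 to 19.9), and the 10 members at a median of 23.4%. The profile of all non-traced endothelial cells was then subtracted at 14.5%, the median level of these markers relative to that profile. This left H2-Q4, H2-Q7 and Tap1 at 0 CPM, H2-T23 at 7.59, H2-K1 at 99.16, B2m at 137.9, H2-D1 at 314.5 and Tap2 at 69.83. In the 46 mural cells with no endothelial-marker UMI after thinning, 8 members passed 2-fold, with a median of −2.25, where 42.8% of all genes passed. Further cells with pericyte markers that also carried endothelial markers were left unnamed, 686 in the largest such sub-cluster, so the 156 cells are a selected sample of the mural cells.

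Ependymal cells line the central canal and carry motile cilia. In the non-traced library, where both cell types passed through the same sort and droplets, 8 of the 10 genes were 2-fold or more higher in capillary than in ependymal cells, against 46.4% of all genes in either direction. The median difference was 3.14, and −0.08 over all genes. It was 4.46 for B2m, 4.44 for H2-T23, 3.83 for H2-D1, 3.79 for H2-Q4, 3.28 for H2-Q7, 2.99 for Tap1, 2.87 for H2-K1 and 1.57 for Tap2. Tapbp, at 0.82, did not pass, and Nlrc5 was below the floor of 10 CPM in both groups. H2-Q4, H2-Q7 and Tap1 reached that floor only through capillary cells, with 5.09, 2.78 and 3.01 CPM in ependymal cells. Of the 9 genes at the floor, B2m and H2-T23 thus had the widest gaps and Tap2 and Tapbp the narrowest.

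The endothelial markers stood in non-traced ependymal cells at a median of 1.88% of their capillary level (range 1.21 to 4.74), the members at a median of 8.76% (range 4.32 to 56.2). In traced ependymal cells, which came from a library nearly free of endothelial cells, the medians were 0.132% for the markers (range 0.0696 to 3.74, Kdr being the highest) and 5.89% for the members (range 1.55 to 52.8). The members thus stood higher in ependymal cells, relative to capillary cells, than the median endothelial marker did. H2-K1 was found in 8.10% of non-traced ependymal cells after thinning to 1000 UMIs (46.1% before thinning), at a median depth of 7051 UMIs, and in 49.0% of capillary cells (95.2% before thinning), at 6717. The endothelial gene Cldn5, which ependymal cells should lack, was found in 10.6% of non-traced and 0.189% of traced ependymal cells, and H2-K1 in 5.21% of the traced ones (31.4% before thinning). The H2-K1 share was thus below that of Cldn5 in the non-traced and above it in the traced library, and Cldn5 was the more abundant of the pair in capillary cells.

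Traced and non-traced ependymal cells were compared next. Traced cells had lower values for 8 of the 10 genes, and 2 members, H2-K1 and B2m, were 2-fold or more lower, against 2.09% of all genes that passed in either direction. The median difference was −0.65, and 0.03 over all genes. H2-K1 was at 103.3 CPM (96.61 to 110.3) in 1161 non-traced and 50.84 CPM (48.8 to 52.95) in 4764 traced cells, a difference of −1.01, and B2m at 46.78 CPM (42.33 to 51.57) and 16.31 CPM (15.16 to 17.52), a difference of −1.47. H2-D1 (−0.88) and H2-T23 (−0.89) lay just short of 2-fold. For H2-Q4, Tap1, Tap2, Tapbp and Nlrc5 the intervals of the libraries overlapped. Only 6 of the 10 members reached the floor of 10 CPM in either library, on which the share of all genes is based.

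Part of these values moved with endothelial RNA and with the clusters. An endothelial profile scaled to the markers would give 20.35 of the 46.78 CPM of B2m in non-traced ependymal cells and 1.56 of the 16.31 CPM in traced ones. What was left was 26.43 and 14.75 CPM of B2m, 87.92 and 49.67 CPM of H2-K1, 70.14 and 51.17 CPM of H2-D1, and 8.60 and 7.01 CPM of H2-T23. After the subtraction no member passed 2-fold, and the median difference was −0.31. Left as they were but without the 5 non-traced ependymal cells that Scrublet called doublets, B2m alone passed and H2-K1, at −0.998, did not. With each library clustered on its own, 4 members passed (H2-K1, H2-D1, H2-T23 and B2m), where 2.94% of all genes did.

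Different clusters hold most of the cells in the 2 libraries, those numbered 10 and 13 in the non-traced and 7, 8, 9, 11 and 14 in the traced library. Only cluster 13, led by Ucma, had many cells of both, 380 non-traced and 201 traced. In it H2-K1 was at 142.7 CPM (128.9 to 157.5) in non-traced and 113.7 CPM (99.6 to 129.2) in traced cells, and B2m at 46.84 and 17.90 CPM, so that B2m alone passed 2-fold. H2-K1 was the higher in this cluster in both libraries. The other non-traced cluster, led by Pcp4 and Ly6h, had 84.83 CPM, and the larger traced clusters 35.61 to 49.96 CPM. The H2-K1 share of H2-K1 and H2-D1 UMIs was highest there too, at 55.8% (52.1 to 59.5) in non-traced and 57.7% (52.8 to 62.6) in traced cells, against 47.9% in non-traced cluster 10 and 46.7 to 50.8% in the larger traced clusters.

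Among traced ependymal cells 2 further clusters stood out. Cluster 14 (529 cells, led by Sntn and Anxa8) was lowest in H2-K1 (35.61 CPM), H2-D1 (36.67 CPM) and B2m (9.57 CPM) but highest in Tap2 (49.07 CPM, 43.47 to 55.21, with 29.12 to 35.79 in the others). Cluster 18 (39 dividing cells, led by Mki67 and Pbk) held H2-D1 at 124.3 CPM (96.55 to 157.6), B2m at 45.71 CPM (29.58 to 67.48) and Tapbp at 122.5 CPM (94.94 to 155.6). It also had 21 UMIs of H2-Q4 (38.4 CPM, 23.77 to 58.69) and 10 of H2-Q7 (18.28 CPM, 8.77 to 33.62), where no other traced cluster exceeded 5.80 and 1.40 CPM. These levels rest on 39 cells.

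**Figure D5:**
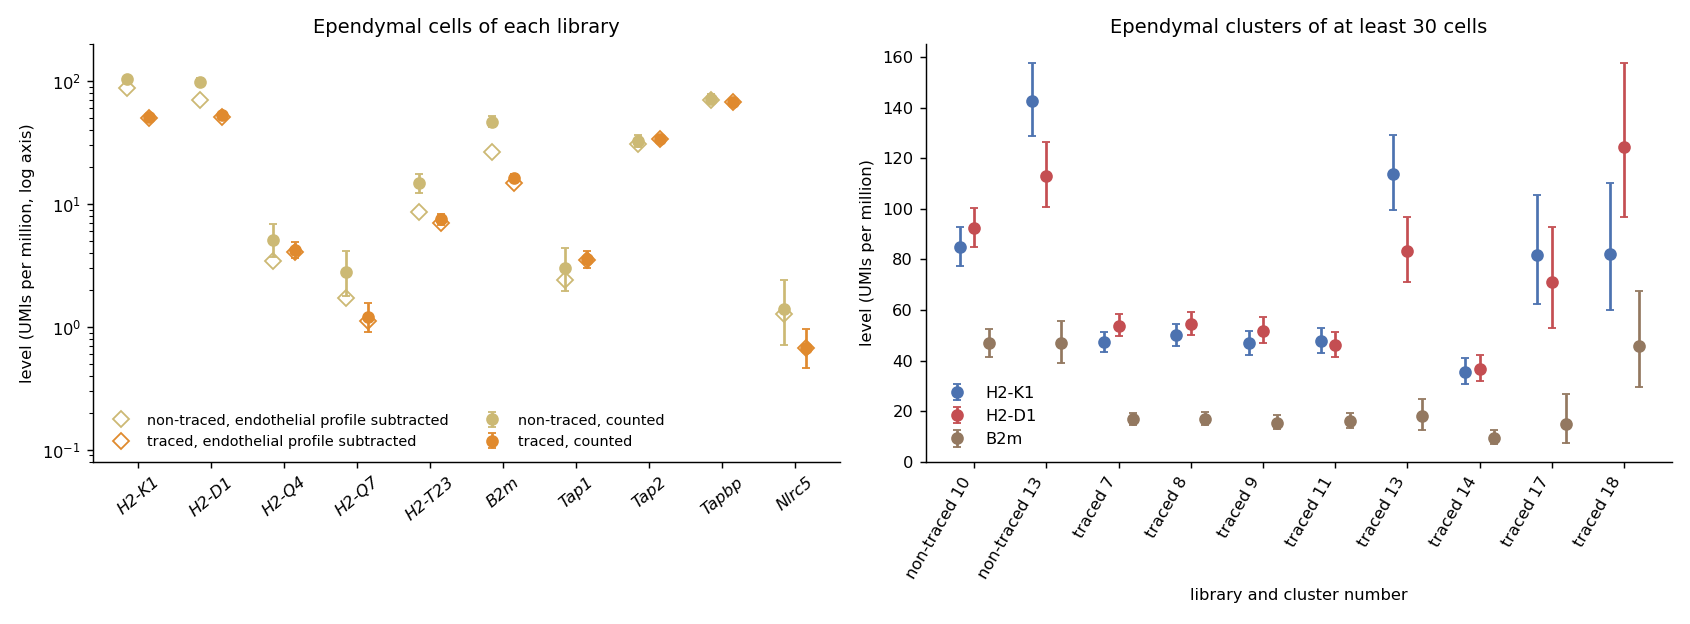
Left, levels of the 10 genes in ependymal cells of each library (CPM, log axis) as counted, with exact 95% Poisson intervals, and after subtraction of an endothelial profile (open diamonds). Right, H2-K1, H2-D1 and B2m (CPM, exact 95% Poisson intervals) in each ependymal cluster of at least 30 cells, where cluster 13 has the most H2-K1 in each library (142.7 and 113.7 CPM) and traced cluster 18 the most H2-D1 (124.3 CPM).

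The 51 traced endothelial cells were close to the 19862 non-traced ones. No member passed 2-fold, while 8.61% of all genes did at this small depth, and the median difference was −0.05, with 0.08 over all genes. H2-Q4 was at 151 CPM against 97.94, a difference of 0.62 (interval of the log2 ratio 0.29 to 0.94), and B2m at 930 against 1183 CPM, a difference of −0.35 (−0.48 to −0.22). Ependymal RNA moved with this group, whose 10 ependymal markers summed to 346.2 CPM as against 12.08 CPM in non-traced endothelial cells. The 8 arterial markers summed to 1976 and 834.6 CPM, so the mix of segments moved with it too. The part of either in the differences was not tested.

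The rest of the pathway gave the members a frame. The immunoproteasome genes Psmb8, Psmb9, Psmb10, Psme1 and Psme2, which shift proteasomes towards class I peptides, followed the members. In mural cells 5 of 5 were 2-fold or more lower than in capillary cells, where 30.4% of all genes passed in either direction. Against non-traced ependymal cells 5 of 5 were higher in capillary cells, where 46.4% of all genes passed. Psmb8 was among those that reached the floor of 10 CPM there only through capillary cells. Psmb8 was at 202 CPM in capillary, 353.9 in interferon-responding, 46.66 in mural and 9.96 and 6.04 in non-traced and traced ependymal cells. Of 4 other proteasome genes, the constitutive subunits Psmb5, Psmb6 and Psmb7 and the activator gene Psme3, 0 passed 2-fold in any of the 7 comparisons. Over all genes the share passing ran from 0.555% to 46.4%. Psmb5 was at 177.1 CPM in capillary and 174.3 CPM in non-traced ependymal cells.

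Of the 6 further heavy chains listed, H2-Q6, H2-T22, H2-T24 and H2-M3 were 2-fold or more higher in capillary than in ependymal cells. In that comparison 46.4% of all genes passed in either direction. H2-T10 and H2-Q10 were below 10 CPM. Among 4 class I-like genes the directions were mixed. Fcgrt, the neonatal receptor for IgG, was at 512.9 CPM in capillary, 244.7 in arterial, 15.86 in non-traced and 5.89 in traced ependymal cells. Mr1, which presents microbial vitamin B metabolites, went the other way, at 11.08 CPM in capillary, 29.55 in mural, 44.69 in non-traced and 51.02 in traced ependymal cells. Of 5 loading and trimming genes, Tapbpl and Erap1 passed 2-fold both in mural and in ependymal cells, lower in each than in capillary cells. The shares of all genes passing there were 30.4% and 46.4%. Calr, Canx and Pdia3, which serve glycoproteins in general, passed in no comparison.

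Regulators upstream of the members went both ways between capillary and non-traced ependymal cells, a comparison in which 46.4% of all genes passed in either direction. Of 8 regulators, 5 were 2-fold or more higher in capillary than in ependymal cells (Irf1, Irf2, Stat2 and Irf9 among them) and Rfx5, a subunit of the factor that binds the X box, was lower, at 5.39 against 12.85 CPM. Irf1 was the 1 regulator past 2-fold in venous cells, at 364.8 CPM against 114.1 in capillary cells. Of the 4 interferon receptor genes, Ifnar1, Ifnar2 and Ifngr2 were higher in capillary than in ependymal cells and Ifngr1 was level, at 66.44 and 65.19 CPM. Of 9 guanylate-binding proteins and GTPases, Igtp, Irgm1, Tgtp1 and Tgtp2 passed 2-fold in the interferon-responding cells, where 0.555% of all genes and none of the members did.

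Class II genes, which serve CD4+ T cells, were below 10 CPM in all compared groups (0 of 7 reached it). Ependymal cells held H2-Ab1 at 6.25 CPM (non-traced) and 3.38 CPM (traced), and capillary cells at 0.167 CPM, while Cd74 had 1 UMI in non-traced and 0 UMIs in traced ependymal cells. Genes among the 5 most like the members over the 9 groups of at least 50 cells, by Pearson correlation of log2(CPM + 1) with the mean of the 10, were Rasd1 (r = 0.997), Nos3 (0.995), Slc6a6 (0.995) and Grasp (0.995), among 11654 genes. Rasd1, for example, was at 102.5 CPM in capillary, 207.2 in arterial, 146.2 in venous and 1.90 in traced ependymal cells. Of the members, H2-K1 and H2-Q4 (both 0.993) were nearest to that mean and Tapbp (0.852) furthest.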

How the data were processed

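The authors deposited 1 table of UMI counts per library, made with Cell Ranger 3.0.2 (STAR 2.5.1b, mm10 with reporter sequences, 3′ kit) and not normalised. No column was left unused. The 10 genes and all gene lists were chosen with earlier results of these data known. The total was 233318692 UMIs in the non-traced and 46530507 in the traced library, with at least 1011 and 1013 UMIs per cell.

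Integration of both libraries used 2000 features and 20 components, with clusters at resolution 0.8 (Seurat 5.3.0 under R 4.3.3). Vascular cells of the non-traced library were clustered again at 2.5 into 36 sub-clusters. The members, the pathway lists and the reporter were left out of the features. The cells of a cluster were named separately for each library from marker lists, where at least 3 markers had to be found in 50% of its cells. Cells with 70% of a second class's markers, or led by another class, stayed unnamed. Arterial, venous and interferon-responding names needed a mean log2 difference of at least 1 in their own markers from the other vascular cells. These thresholds and the resolution of 2.5 were set after the data were seen. In all 4200 non-traced and 10 traced cells stayed unnamed.

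Counts were summed per group and expressed as CPM. A gene passed 2-fold where log2(CPM + 1) differed by at least 1 and it reached 10 CPM in either group, and shares passing were taken over all genes at that floor. The pseudocount understates differences of low genes. Intervals were exact Poisson for levels, exact Clopper-Pearson for shares and exact conditional binomial for ratios. The computations, checked on simulated counts, used Python 3.11.15 and scipy 1.17.1. The text names all members and pathway genes by list, and the 5 genes most like the members, apart from items that are not reported here. Doublets were kept. Scrublet (scanpy 1.11.5) called 2209 non-traced cells (8.69%, 20.3% expected) and 0 traced cells (3.86% expected), so it did not work in the traced library.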

Additional observations from a re-analysis of the deposited data

How the results depend on the processing

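The counts of members past 2-fold were recomputed 64 times, and 58 stayed within 1.5 times the value reported. The comparison of traced with non-traced ependymal cells moved from 2 members to 1 without Scrublet calls and to 4 with each library clustered on its own. Under settings chosen after seeing the data, it went to 0 with the endothelial profile subtracted and to 1 within the cluster led by Ucma. The count in interferon-responding cells went from 0 to 2 in the Cxcl9-led sub-cluster alone, and that in venous cells from 1 to 3 in the Lrg1-led sub-cluster alone. Those settings use fewer cells by construction. Of 640 recomputed differences of single members, 534 stayed within the counting interval, 0 of those past 2-fold changed sign, and 14 others did. No paired analysis was possible because each group was 1 library. Depth limited Nlrc5 throughout, and H2-Q4, H2-Q7 and Tap1 in mural and ependymal cells.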

Other observations

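A sub-cluster of 1008 non-traced vascular cells was led by Cd74, Igkc and H2-Ab1 and was left unnamed for that reason. Cd74, the chaperone of class II molecules, was at 12.03 CPM there (83 UMIs, interval 9.58 to 14.91), against 0.0256 CPM (2 UMIs) in capillary cells. H2-Ab1 was at 3.77 CPM and Igkc, an immunoglobulin light chain gene, at 4.35 CPM. Of the leukocyte markers, Cd79a of B cells had 21 UMIs (3.04 CPM, against 1.17 in capillary cells), Cd52 6 UMIs (0.87 against 0.13 CPM), Coro1a 6 UMIs (0.87 against 0.333 CPM), Laptm5 4 UMIs (0.58 against 0.615 CPM), Ptprc 1 UMI and Cd3e 0 UMIs, and their part in these levels was not tested. Ciita, the activator of class II genes, had 0 UMIs, where 3 UMIs would have been below 1 CPM. In the same cells the class I genes were within the range of the named endothelial sub-clusters, with H2-K1 at 892.4 CPM, H2-D1 at 1821, H2-T23 at 405.5, B2m at 1067, Tap1 at 35.36 and H2-Q7 at 41.44 CPM.

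A further sub-cluster of 742 endothelial cells with no segment, led by Icam5, Icam1, Tnf and Cxcl2, had H2-K1 at 1175 CPM (1150 to 1202) and H2-Q7 at 84.6 CPM (77.77 to 91.86), with Tap1 at 34.53 CPM (30.22 to 39.28). Its H2-K1 share of H2-K1 and H2-D1 UMIs was 39.1% (38.4 to 39.8), the highest outside the venous sub-clusters. The 9 venous markers, Icam1 among them, summed to 1861 CPM in it, against 516.7 CPM in capillary cells. Their mean log2 difference from the other vascular cells was 0.579, short of the 1 needed for the venous name.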
